A study of Mus musculus with 31 samples.

Results

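Mouse bone marrow-derived macrophages that had been given the BRD9 inhibitor iBRD9 before lipopolysaccharide (LPS) were compared with macrophages given the glucocorticoid dexamethasone (Dex) before LPS. The libraries were chosen by their titles, 3 with iBRD9 + LPS and 3 with Dex + LPS, which are 6 of the 21 libraries of the first sequencing experiment and of the 31 libraries of the series. All 35275 genes of the count table were taken, of which 12662 had enough reads to be tested. The question is how these 2 ways of damping the LPS response differ, gene by gene.

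The cells came from the marrow of male C57BL/6J mice aged 6 to 12 weeks and were grown in medium conditioned by L-929 cells, a fibroblast line that secretes the macrophage growth factor M-CSF. Compounds were given overnight, iBRD9 at 3 or 10 µM and Dex at 1 µM, and LPS then followed at 100 ng/ml for 3 h. The labels do not say which iBRD9 dose a library had. The LPS group (3 libraries, no compound) and the vehicle group (3 libraries, neither compound nor LPS) place the differences on the LPS response, and 3 libraries given Dex, iBRD9 and LPS together are quoted for some genes. Every iBRD9 and Dex library also received LPS, so effects of either compound on resting cells are not measured here. The other libraries of the first experiment were given a BRD9 degrader and LPS, with or without Dex. They entered only the filter, the scaling and the estimate of spread. The labels do not say whether the 3 libraries of a group came from separate mice or cultures. The p-values therefore measure only the spread between libraries of a group, over all groups fitted, which may be technical.

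LPS is sensed by TLR4, which acts through NF-κB and MAP kinases on cytokine genes and, through TRIF and IRF3, on the gene of interferon β, whose secretion then induces interferon-stimulated genes in the same cells. Dex binds the glucocorticoid receptor, which enters the nucleus, induces genes at glucocorticoid response elements and represses many targets of NF-κB and AP-1. BRD9 is a bromodomain protein of the non-canonical BAF complex, a chromatin remodeller, and iBRD9 occupies the bromodomain, with which BRD9 reads acetylated lysines. Both compounds therefore act on transcription in the nucleus, but on different proteins.

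Depth was 29.9, 24.7 and 23.7 M counts in the iBRD9 + LPS libraries and 24.0, 19.3 and 23.1 M counts in the Dex + LPS libraries. Among the iBRD9 + LPS libraries replicate 2 lay somewhat off. The chi-square per degree of freedom was 5.98 between replicates 1 and 2, 4.96 between 2 and 3, and 2.46 between 1 and 3. Whether replicate 2 had another iBRD9 dose is not in the labels. Dex + LPS replicate 1 stood further apart from its group: the chi-square was 42.0 and 44.8 against the other 2 Dex + LPS libraries, and 2.31 between those 2. Across 7593 genes its deviation from the group mean fell with exon length (Spearman rho = -0.68), while the deviations of the other 2 Dex + LPS libraries rose with it (0.599 and 0.629). Deviations from a shared group mean balance each other, so that rise is no separate observation. Without Dex + LPS replicate 1, 3941 genes were called higher and 3915 lower. Where a call or a printed difference between the compounds moved by over 1.5 times, the value without that library stands beside the gene. All 20 macrophage identity genes, such as Adgre1, Csf1r, Cd68 and Lyz2, were read in both groups.

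In all, 7456 of the 12662 genes (58.9%) differed between iBRD9 + LPS and Dex + LPS at an adjusted p under 0.05 (edgeR quasi-likelihood test with Benjamini-Hochberg adjustment over all genes tested). iBRD9 + LPS was the higher group for 3755 genes (29.7%) and the lower group for 3701 (29.2%), and the median log2 fold change over all genes was 0.01. The counts were scaled so that most genes lie near 0, so this balance cannot show whether total RNA levels were alike. With library totals alone, 4145 genes were higher and 3341 lower. Large differences leaned to the side of Dex: 919 called genes (7.26%) were at least 2-fold higher with iBRD9 + LPS and 1270 (10%) at least 2-fold lower, and 213 were at least 4-fold higher against 545 at least 4-fold lower. The libraries of the groups did not overlap for 7357 genes (58.1%), 6828 of them called. Since RNA was measured in bulk, fewer cells of a type and less RNA per cell cannot be told apart for any gene below.

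**Figure D1:**
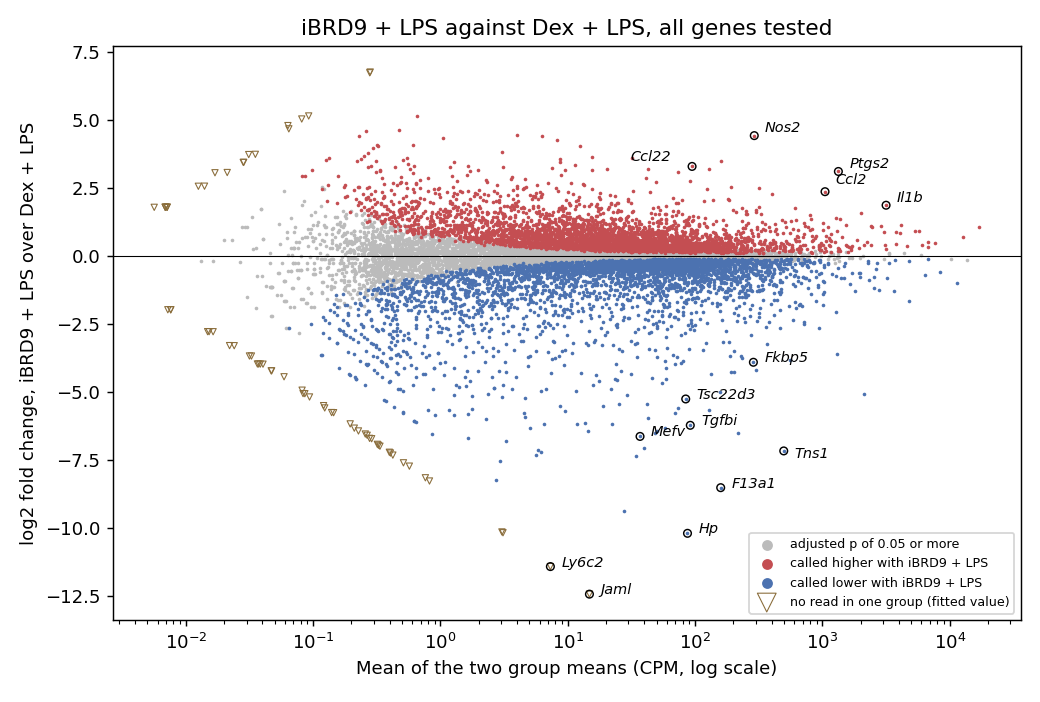
Log2 fold change of iBRD9 + LPS over Dex + LPS (vertical) against the mean of both group means in CPM (counts scaled to the library total, horizontal log axis) for the 12662 genes tested. Red points were called higher and blue points lower, and the 70 triangles are genes with no read in 1 of the groups, whose position is a fitted value and no bound. Nos2, Ptgs2 and Ccl22 lie at the top right, and the longest tail runs downwards to F13a1, Hp, Ly6c2 and Jaml.

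The genes that LPS itself had changed did not follow one rule. LPS raised 1872 genes at least 2-fold over vehicle (14.8%), and of these 443 (23.7%) were higher and 930 (49.7%) lower with iBRD9 + LPS than with Dex + LPS, at a median log2 fold change of -0.28. Set against LPS alone, 1292 of the 1872 were lower and 193 higher with iBRD9, at a median of -0.68, and 998 were lower and 373 higher with Dex, at a median of -0.37. LPS itself was above vehicle for 36.1% of all genes tested at any size and below it for 39.3%. Over all genes 30.5% were lower and 31.4% higher with iBRD9 + LPS than with LPS, and 27.5% lower and 27.9% higher with Dex + LPS. LPS lowered 2300 genes at least 2-fold (18.2%), and of these 783 (34%) were higher and 491 (21.3%) lower with iBRD9 + LPS than with Dex + LPS, at a median of 0.18. Both comparisons with LPS share the same 3 LPS libraries, so their values are set side by side and not related to each other. The LPS-raised class was itself drawn from those libraries. Selection alone can therefore lean its counts and medians against LPS downwards, by an amount that was not measured.

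Absence of a call is not likeness, so the 95% interval of each difference was also read. It lay within 1.5-fold in either direction for 5559 genes (43.9%), for 558 of the LPS-raised genes (29.8%), for 434 of the LPS-lowered genes (18.9%) and for 4567 of the genes in neither class (53.8%). Among genes of at least 50 CPM that each compound lowered against LPS, those with intervals nearest to 0 included Golga7, Ptp4a2 and Sf3b3. Ptp4a2, a protein tyrosine phosphatase gene, had 319, 326 and 315 CPM with iBRD9 + LPS and 321, 315 and 309 CPM with Dex + LPS, and a difference of 0.02 (95% interval -0.06 to 0.10). Sf3b3, a subunit of the splicing factor SF3b, had a difference of 0.01 (-0.08 to 0.10), and of -0.03 (adjusted p = 0.529) without Dex + LPS replicate 1. Against LPS, Ptp4a2 fell by 0.22 with iBRD9 and by 0.24 with Dex, and Sf3b3 fell by 0.35 with iBRD9 and by 0.36 with Dex.

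The counts of each gene list are to be read against the 29.7% of all genes called higher and the 29.2% called lower, at a median of 0.01. Genes that the glucocorticoid receptor is known to induce were mostly lower with iBRD9 + LPS. Of 33 such genes tested, 24 were lower and 6 higher with iBRD9 + LPS than with Dex + LPS, at a median of -2.43. Against LPS, 22 of the 33 were higher and 7 lower with Dex, at a median of 1.07. With iBRD9, 10 were higher and 18 lower than LPS, at a median of -0.57. Fkbp5 (ENSMUSG00000024222, mm10 chromosome 17, 28399094 to 28517527), a co-chaperone that restrains the receptor, had 36.6, 34.2 and 36.2 CPM with iBRD9 + LPS and 533, 546 and 537 CPM with Dex + LPS, against a mean of 27.8 CPM with LPS. The groups lay far apart, and the log2 difference was -3.92 (SE 0.06, adjusted p = 6e-23). Tsc22d3 (ENSMUSG00000031431, chromosome X, 140539528 to 140600659), which encodes the anti-inflammatory protein GILZ, had 4.07, 4.68 and 4.11 CPM with iBRD9 + LPS and 177, 168 and 149 CPM with Dex + LPS. The compounds differed by -5.26 (SE 0.10, adjusted p = 1.6e-21), yet iBRD9 + LPS was itself 1.07 above LPS alone (2.03 CPM, adjusted p = 1.7e-06).

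Other receptor targets were ordered likewise. Dusp1, a phosphatase that switches off p38 and JNK, had 118, 116 and 124 CPM with iBRD9 + LPS and 638, 651 and 638 CPM with Dex + LPS (log2 fold change -2.43, SE 0.05, adjusted p = 5.6e-21). Per1, a clock gene with a glucocorticoid response element, was 2.03 lower with iBRD9 + LPS, and it stood 0.99 above LPS with iBRD9 and 3.01 above it with Dex. The widest gap among the 33 was that of Tns1, a focal adhesion protein, with 6.98, 7.25 and 6.24 CPM with iBRD9 + LPS and 791, 1115 and 1056 CPM with Dex + LPS (-7.17, SE 0.12, adjusted p = 5.3e-22). Cd163, the haemoglobin scavenger receptor that glucocorticoids induce in macrophages, had means of 0.379 CPM with iBRD9 + LPS and 27.1 CPM with Dex + LPS, and Lcn2, the siderophore-binding lipocalin, had 4.89 CPM with iBRD9 + LPS and 250 CPM with Dex + LPS. Of the 6 listed genes that were higher with iBRD9 + LPS, 2 were so by at least 2-fold: Errfi1, an inhibitor of the EGF receptor, at 1.61 (named after its values were seen), and Irs2. Irs2, an insulin receptor substrate, had 23.2, 16.4 and 22.9 CPM with iBRD9 + LPS and 1.6, 2.25 and 2.42 CPM with Dex + LPS (3.32, SE 0.17, adjusted p = 1.2e-13).

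The transcripts of the 2 drug targets differed modestly. Brd9 (ENSMUSG00000057649, chromosome 13, 73937811 to 73960895) had 25.3, 25.3 and 24.9 CPM with iBRD9 + LPS and 38.6, 36.7 and 37.6 CPM with Dex + LPS, against means of 43.0 CPM with LPS and 24.3 CPM with vehicle. Its log2 fold change was -0.58 (SE 0.06, adjusted p = 3.8e-08). Nr3c1, the gene of the glucocorticoid receptor, had 160, 167 and 168 CPM with iBRD9 + LPS and 85.9, 137 and 131 CPM with Dex + LPS, with replicate 1 of Dex + LPS the lowest. The log2 fold change was 0.49 (SE 0.10, adjusted p = 0.00035) with that library and 0.30 (adjusted p = 2.58e-05) without it. Of 24 BAF complex subunits tested, 6 were higher and 8 lower with iBRD9 + LPS, at a median of 0.03, and none differed by 2-fold.

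Cytokine genes were split between the compounds. Of 23 inflammatory cytokine genes, 10 were higher and 12 lower with iBRD9 + LPS than with Dex + LPS, with medians against LPS of -1.29 with iBRD9 and -1.33 with Dex. Those at the iBRD9 end included both interleukin 1 genes, Il12b, Osm and, among enzymes, Nos2 and Ptgs2. Those at the Dex end included Il6, Il12a, Il1rn and Edn1.

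Nos2 (ENSMUSG00000020826, chromosome 11, 78920787 to 78960254), the inducible nitric oxide synthase, had the highest log2 fold change of the genes named by the rule given with the methods. It had 608, 515 and 548 CPM with iBRD9 + LPS and 25.1, 27.6 and 25.9 CPM with Dex + LPS, against 307 CPM with LPS. Every iBRD9 + LPS library lay above the LPS mean and every Dex + LPS library far below it (log2 fold change 4.41, SE 0.11, adjusted p = 9.6e-20). Ptgs2 (ENSMUSG00000032487, chromosome 1, 150100031 to 150108227), the cyclooxygenase of inflammatory prostaglandin synthesis, had 2251, 2672 and 2248 CPM with iBRD9 + LPS and 222, 297 and 321 CPM with Dex + LPS. Both compounds left it below the LPS mean of 4860 CPM, but Dex by far more (3.09, SE 0.11, adjusted p = 1e-16).

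Il1b (ENSMUSG00000027398, chromosome 2, 129364570 to 129371139), a pyrogenic cytokine, had 4807, 5356 and 4708 CPM with iBRD9 + LPS and 1471, 1335 and 1309 CPM with Dex + LPS, against 5851 CPM with LPS. Its log2 fold change between the compounds was 1.85 (SE 0.06, adjusted p = 5.2e-18), and it had fallen by 0.24 with iBRD9 and by 2.09 with Dex against LPS. Il1a had 324, 433 and 331 CPM with iBRD9 + LPS and 115, 106 and 104 CPM with Dex + LPS (1.74, SE 0.09, adjusted p = 1.1e-13). Il12b, the p40 chain shared by interleukins 12 and 23, had 215, 210 and 204 CPM with iBRD9 + LPS and 41.4, 35.9 and 36.7 CPM with Dex + LPS, on opposite sides of the LPS mean of 126 CPM (2.46, SE 0.07, adjusted p = 8.9e-17). Osm, the gene of oncostatin M, had 16.2, 18.9 and 16.5 CPM with iBRD9 + LPS and 2.30, 1.98 and 1.46 CPM with Dex + LPS. The Dex + LPS level of Osm was near the vehicle mean of 2.55 CPM, while the iBRD9 + LPS level was near the LPS mean of 16.1 CPM (3.16, SE 0.15, adjusted p = 1.8e-14).

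Other cytokine genes were lower with iBRD9 + LPS. Il6 (ENSMUSG00000025746, chromosome 5, 30013114 to 30019981), an acute-phase cytokine, had 138, 157 and 127 CPM with iBRD9 + LPS and 273, 264 and 240 CPM with Dex + LPS, against 406 CPM with LPS (log2 fold change -0.88, SE 0.08, adjusted p = 5.7e-09). Il12a, the p35 chain that pairs with p40 in interleukin 12, had 1.93, 3.69 and 1.84 CPM with iBRD9 + LPS and 8.11, 7.64 and 7.77 CPM with Dex + LPS (-1.67, SE 0.16, adjusted p = 1.2e-08). Thus the 2 chains of interleukin 12 differed in opposite directions. Il1rn, the interleukin 1 receptor antagonist, had 22.8, 37.8 and 26.5 CPM with iBRD9 + LPS and 139, 127 and 127 CPM with Dex + LPS (-2.18, SE 0.12, adjusted p = 2.1e-13). The agonist genes Il1a and Il1b and their antagonist were therefore also ordered oppositely. Edn1, the gene of endothelin 1, had 20.0, 33.2 and 19.2 CPM with iBRD9 + LPS and 227, 220 and 218 CPM with Dex + LPS, against 235 CPM with LPS (-3.20, SE 0.14, adjusted p = 3.2e-15). Against LPS, Edn1 fell by 3.29 with iBRD9, while with Dex the difference was -0.09 (adjusted p = 0.57).

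Some mediators had smaller differences or less stable calls. Tnf had 4472, 4658 and 4263 CPM with iBRD9 + LPS and 4980, 5152 and 5201 CPM with Dex + LPS, against 8426 CPM with LPS. The log2 fold change between the compounds was -0.20 (95% interval -0.29 to -0.10, adjusted p = 0.00066). Il10, an anti-inflammatory cytokine, had 2.64, 4.23 and 2.65 CPM with iBRD9 + LPS and 2.04, 1.70 and 1.55 CPM with Dex + LPS (0.83, SE 0.27, adjusted p = 0.011, and 0.58 with adjusted p = 0.0879 without iBRD9 + LPS replicate 2). Acod1, which makes itaconate, had 6521, 6626 and 6334 CPM with iBRD9 + LPS and 6539, 7468 and 7282 CPM with Dex + LPS, overlapping groups with a difference of -0.13 (adjusted p = 0.019) that failed the threshold in 5 of the alternative settings.

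**Figure D2:**
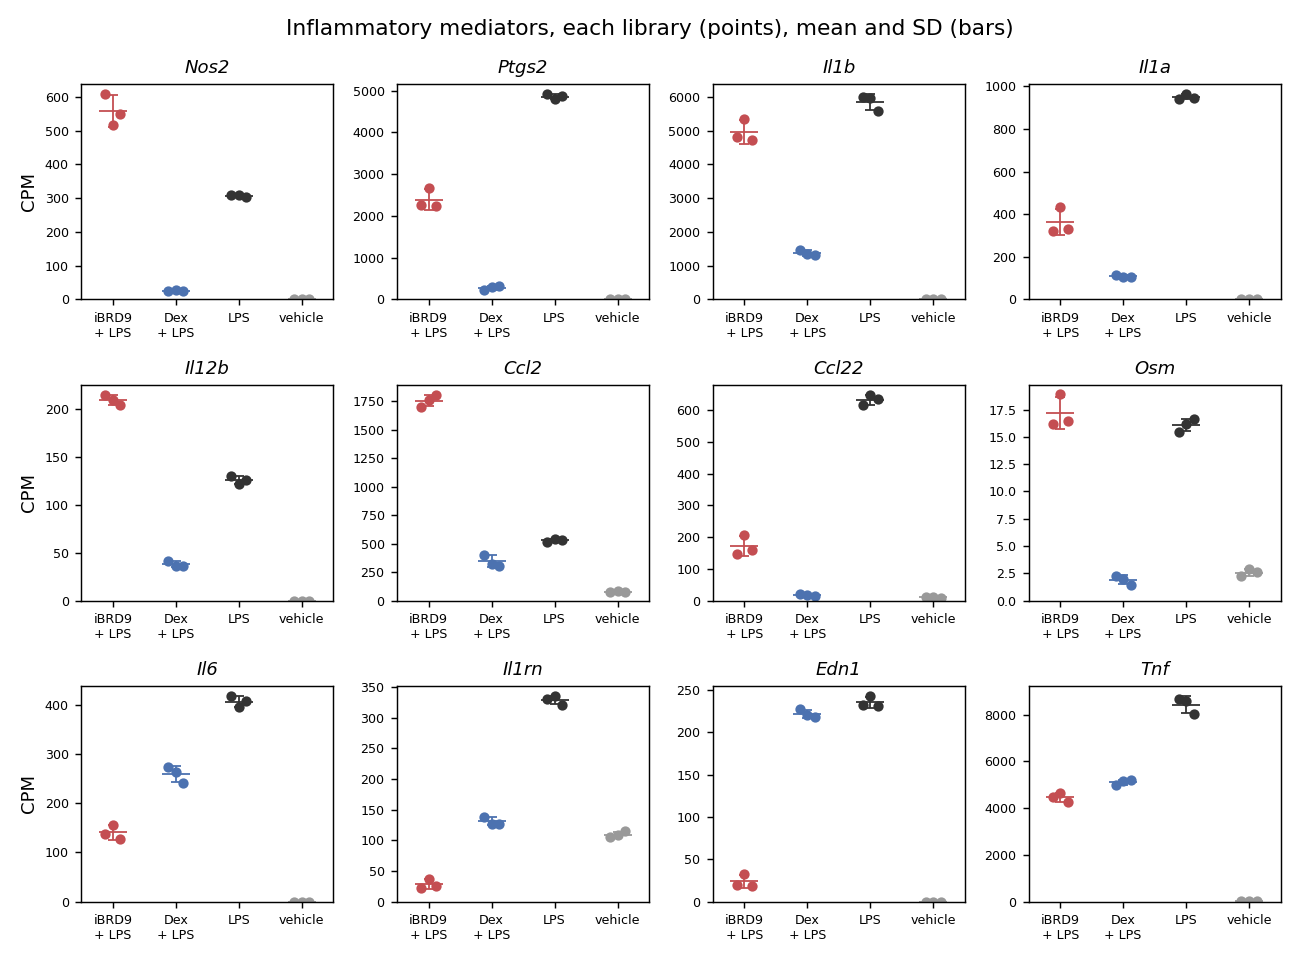
CPM of 12 inflammatory mediators in each library of iBRD9 + LPS, Dex + LPS, LPS and vehicle, with the mean and SD (n = 3) as bars; each panel has its own linear axis from 0. In the panels from Nos2 to Osm iBRD9 + LPS lies above Dex + LPS, as for Nos2 at 515 to 608 against 25.1 to 27.6 CPM, and in those of Il6, Il1rn, Edn1 and Tnf it lies below.

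Chemokine genes were called in both directions, where 29.7% of all genes were higher and 29.2% lower. Of 12 CC chemokines, 6 were higher and 2 lower with iBRD9 + LPS than with Dex + LPS (1 lower without Dex + LPS replicate 1), and of 10 CXC chemokines 5 were higher and 3 lower, at medians of 0.23 and 0.26. Ccl2 (ENSMUSG00000035385, chromosome 11, 82035571 to 82037453), which attracts monocytes through CCR2, had 1699, 1759 and 1803 CPM with iBRD9 + LPS and 403, 325 and 303 CPM with Dex + LPS. The LPS mean of 528 CPM lay between the groups, which differed by 2.35 (SE 0.08, adjusted p = 3.7e-17). Ccl7, another CCR2 ligand, had 311, 338 and 337 CPM with iBRD9 + LPS and 67.9, 52.9 and 51.8 CPM with Dex + LPS (2.51, SE 0.09, adjusted p = 6.5e-17).

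Ccl22, a CCR4 ligand, was lowered by both compounds but unequally, with 147, 207 and 161 CPM with iBRD9 + LPS and 21, 16.2 and 15.6 CPM with Dex + LPS, against 632 CPM with LPS (3.28, SE 0.12, adjusted p = 1.7e-16). The macrophage inflammatory protein genes Ccl3 and Ccl4 stayed within 0.09 of LPS alone with iBRD9 on the log2 scale, fell by 1.04 and 1.5 with Dex, and so were 1.14 and 1.58 higher with iBRD9 + LPS. The neutrophil attractant Cxcl2 had means of 5201 CPM with iBRD9 + LPS and 4015 CPM with Dex + LPS (0.37, adjusted p = 9e-06), while its relative Cxcl3 had 146 CPM with iBRD9 + LPS and 195 CPM with Dex + LPS, both far below the LPS mean of 1169 CPM (-0.42, adjusted p = 1.3e-05). Cxcl1, the third of that group, differed by 0.16 (adjusted p = 0.016), a call that was lost in 3 alternative settings. Pf4, the platelet factor 4 gene, differed by -0.49, and by -0.32 without Dex + LPS replicate 1.

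The gene of interferon β itself was not called between the compounds. Ifnb1 had 0.271, 0.704 and 0.385 CPM with iBRD9 + LPS and 0.260, 0.825 and 0.503 CPM with Dex + LPS, against a mean of 6.01 CPM with LPS. The groups overlapped, with a log2 fold change of -0.20 (95% interval -1.10 to 0.70, adjusted p = 0.71), an interval wide enough to hold a 2-fold difference in 1 direction. Without Dex + LPS replicate 1 the difference was -0.55 (adjusted p = 0.28). Against LPS, Ifnb1 fell by 3.75 with iBRD9 and by 3.55 with Dex.

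Of 52 genes that type I interferon induces, 51 were lower than LPS with iBRD9 and 51 were lower with Dex, at medians of -1.89 and -1.48. Set against each other, 31 were lower and 10 higher with iBRD9 + LPS, at a median of -0.32, where 29.2% and 29.7% of all genes were called in those directions. Ifi205, a PYHIN protein of the AIM2 family, was the furthest apart by the rule for named genes, with 21.7, 33.1 and 22.7 CPM with iBRD9 + LPS and 160, 145 and 143 CPM with Dex + LPS (-2.53, SE 0.11, adjusted p = 7.8e-15). Its relative Ifi204 differed by -1.26, and since members of that cluster are near-identical, reads may be split between them.

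Ifih1, the sensor MDA5 of viral double-stranded RNA, had 215, 229 and 204 CPM with iBRD9 + LPS and 573, 732 and 701 CPM with Dex + LPS. Dex + LPS was close below the LPS mean of 809 CPM, at -0.27, and iBRD9 + LPS was 1.91 below it (between the compounds -1.63, SE 0.08, adjusted p = 2.1e-14). Oasl1, which restrains translation of Irf7, had 25.7, 34.8 and 26.3 CPM with iBRD9 + LPS and 85.5, 67.5 and 70.1 CPM with Dex + LPS, both far below 350 CPM with LPS (-1.36, SE 0.11, adjusted p = 3.5e-10). The antiviral genes Mx1 and Ifit1 differed less, by -0.70 (adjusted p = 0.00015) and -0.33 (adjusted p = 0.0042). Cxcl10, the interferon-induced CXCR3 ligand, ran the other way, with 467, 486 and 491 CPM with iBRD9 + LPS and 433, 356 and 341 CPM with Dex + LPS (0.35, SE 0.09, adjusted p = 0.0018), while Cxcl9, a ligand of the same receptor, differed by -1.02 (adjusted p = 3.1e-05).

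Among 23 genes of interferon β induction and signalling, 6 were higher and 12 lower with iBRD9 + LPS. Irf8, a myeloid transcription factor, had 100, 108 and 106 CPM with iBRD9 + LPS and 40.0, 36.5 and 33.6 CPM with Dex + LPS, and the LPS mean of 112 CPM lay beside the iBRD9 values (1.51, SE 0.06, adjusted p = 2.3e-15). Socs1, which blocks JAK kinases, was also higher with iBRD9 + LPS, at a mean of 41.5 CPM, than with Dex + LPS, at 19.5 CPM (1.08, adjusted p = 1.2e-10). Ikbke, a kinase of IRF3, and Ifnar2, a receptor chain for interferon β, were lower, by 1.27 and 0.92 on the log2 scale. Cd14, the LPS co-receptor, averaged 2319 CPM with iBRD9 + LPS and 4140 CPM with Dex + LPS (-0.84, adjusted p = 5.4e-13).

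The interferon-inducible GTPases divided by family. Many of these proteins, though not all, attack vacuoles that hold intracellular pathogens. The GTPases fall into the large guanylate-binding proteins (GBP) and the smaller immunity-related GTPases (IRG). All 7 GBP genes tested were higher with iBRD9 + LPS than with Dex + LPS, at a median of 1.61, and 6 of 7 IRG genes were lower and none higher, at a median of -0.99. Against LPS the GBP medians were 0.16 with iBRD9 and -1.56 with Dex, and the IRG medians were -2.77 with iBRD9 and -1.89 with Dex. The division by family, and the genes Gbp2b, Irgm1 and Irgm2 named here, were chosen after the values had been seen, and Gbp5, Gbp6 and Gbp10 were not analysed here.

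The promoters of a pair from each family are shown because genes of both families carry the interferon-stimulated response element core close to the start and yet differed in opposite directions. Each runs 5′ to 3′ on the strand of its gene, from 250 bases before to 50 bases after the gene start, in the RefSeq annotation of GRCm38.p6, and capitals mark the core (GAAA, then any 2 bases, then GAAA) or its reverse complement, searched on both strands. They lie at chr3:142620413-142620712 (plus strand) for Gbp2, chr3:142530086-142530385 (plus strand) for Gbp7, chr11:58199306-58199605 (plus strand) for Igtp and chr11:58214727-58215026 (plus strand) for Irgm2.
Gbp2: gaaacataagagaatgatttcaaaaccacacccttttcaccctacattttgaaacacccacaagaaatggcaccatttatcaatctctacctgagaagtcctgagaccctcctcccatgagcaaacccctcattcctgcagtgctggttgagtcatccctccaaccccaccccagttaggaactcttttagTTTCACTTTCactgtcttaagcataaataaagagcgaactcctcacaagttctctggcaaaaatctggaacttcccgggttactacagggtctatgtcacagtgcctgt
Gbp7: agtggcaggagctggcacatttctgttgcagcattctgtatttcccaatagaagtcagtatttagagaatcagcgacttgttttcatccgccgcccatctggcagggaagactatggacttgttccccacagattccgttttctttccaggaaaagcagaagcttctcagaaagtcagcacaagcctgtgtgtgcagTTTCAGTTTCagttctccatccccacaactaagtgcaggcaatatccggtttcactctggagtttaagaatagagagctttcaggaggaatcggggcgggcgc
Igtp: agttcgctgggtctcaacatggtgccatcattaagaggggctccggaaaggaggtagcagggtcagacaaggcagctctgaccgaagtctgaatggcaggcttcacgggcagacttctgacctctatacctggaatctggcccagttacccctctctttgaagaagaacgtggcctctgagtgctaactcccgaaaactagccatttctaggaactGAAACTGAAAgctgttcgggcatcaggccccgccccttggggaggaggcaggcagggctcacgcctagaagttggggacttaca
Irgm2: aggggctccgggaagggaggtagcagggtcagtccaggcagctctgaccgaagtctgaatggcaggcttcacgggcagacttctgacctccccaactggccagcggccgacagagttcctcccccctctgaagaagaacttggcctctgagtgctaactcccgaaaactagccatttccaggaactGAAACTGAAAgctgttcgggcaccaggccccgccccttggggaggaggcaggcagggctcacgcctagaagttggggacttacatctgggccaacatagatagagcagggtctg

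The core begins at position -59 in Gbp2, -53 in Gbp7, -34 in Igtp and -64 in Irgm2, counted from the gene start. It was found in all 4 GBP promoters and in 5 of 6 IRG promoters that matched by symbol, and in 316 of 9606 promoters of all genes tested (3.29%). The promoter of Ifi47 held no such letters in this window. A match is only a description of the sequence, and binding was not measured here.

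Gbp2 had 1170, 1195 and 1125 CPM with iBRD9 + LPS and 499, 452 and 436 CPM with Dex + LPS, against 1028 CPM with LPS (1.33, SE 0.05, adjusted p = 1.2e-16). Gbp7 had 479, 508 and 480 CPM with iBRD9 + LPS and 104, 166 and 155 CPM with Dex + LPS, against 310 CPM with LPS (1.79, SE 0.12, adjusted p = 5.4e-12). For both genes every iBRD9 + LPS library lay above the LPS mean and every Dex + LPS library below it. Gbp3 differed by 1.6, Gbp9 by 0.79 and Gbp2b by 0.39.

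Igtp, also called Irgm3, had 18.2, 21.3 and 16.8 CPM with iBRD9 + LPS and 45.9, 35.3 and 30.1 CPM with Dex + LPS, against 128 CPM with LPS (-0.99, SE 0.11, adjusted p = 8.8e-08). Irgm2 had 35.7, 50.5 and 37.5 CPM with iBRD9 + LPS and 67.8, 66.3 and 68.8 CPM with Dex + LPS, against 250 CPM with LPS (-0.72, SE 0.10, adjusted p = 2.0e-06). Both compounds thus left these genes far below LPS, iBRD9 further. Irgm1 was the IRG gene without a call, with overlapping groups at 100 to 129 CPM with iBRD9 + LPS and 109 to 124 CPM with Dex + LPS (-0.02, 95% interval -0.19 to 0.15, adjusted p = 0.83).

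**Figure D3:**
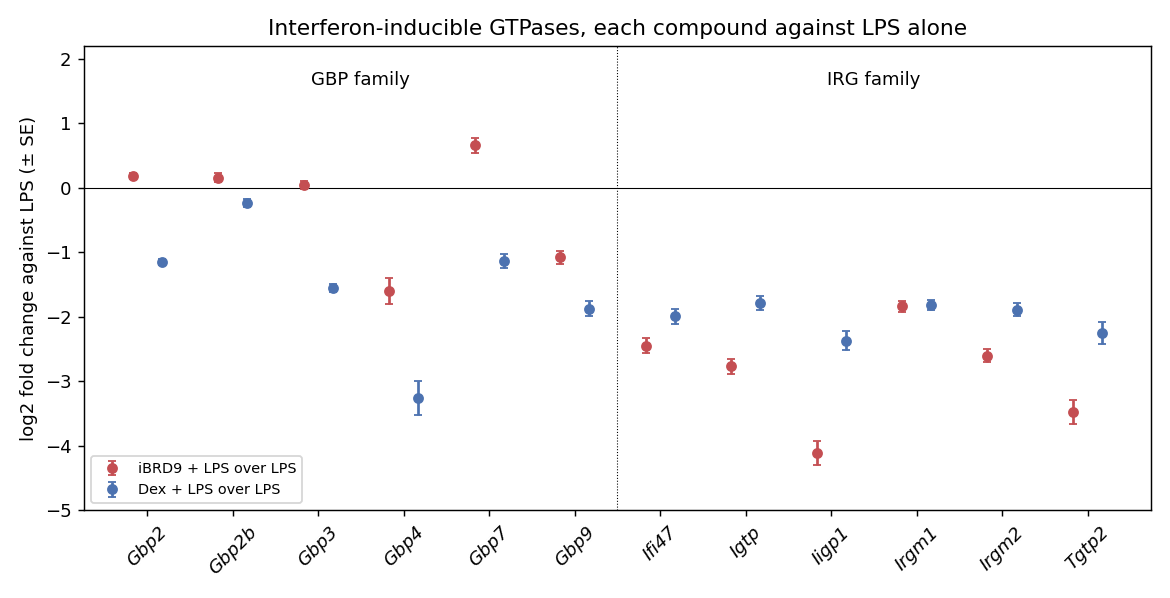
Log2 fold change against LPS (vertical, points, with the SE as bars) of 6 GBP and 6 IRG genes with at least 1 CPM in an LPS-treated group, for iBRD9 + LPS (red) and Dex + LPS (blue), which share the LPS libraries. The red point lies above the blue one for every GBP gene shown, as for Gbp7 at 0.66 against -1.13, and below it for every IRG gene shown but Irgm1, as for Igtp at -2.77 against -1.78.

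MHC class II genes and their activator were mostly below LPS with each compound. Of 9 tested, 2 were higher and 2 lower with iBRD9 + LPS (1 higher without Dex + LPS replicate 1), and their medians against LPS were -2.22 with iBRD9 and -3.17 with Dex. H2-Aa, a class II α chain, had 5.46, 8.95 and 5.0 CPM with iBRD9 + LPS and 6.07, 5.0 and 5.07 CPM with Dex + LPS, against 118 CPM with LPS, and the groups overlapped (0.25, 95% interval -0.09 to 0.59, adjusted p = 0.19). Ciita, the class II transactivator, averaged 2.95 CPM with iBRD9 + LPS and 2.19 CPM with Dex + LPS, a difference of 0.44 (adjusted p = 0.042) that was 0.18 (adjusted p = 0.387) without Dex + LPS replicate 1. Cd74, the invariant chain, had 214, 260 and 203 CPM with iBRD9 + LPS and 145, 105 and 101 CPM with Dex + LPS (0.94, SE 0.10, adjusted p = 1.2e-08).

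Of 15 MHC class I and immunoproteasome genes, 10 were higher and 1 lower with iBRD9 + LPS, at a median of 0.42, and the difference between the class I and class II lists was not tested. H2-K1, a classical class I heavy chain, had 3233, 3309 and 3436 CPM with iBRD9 + LPS and 1786, 1570 and 1508 CPM with Dex + LPS, on opposite sides of the LPS mean of 1912 CPM (1.04, SE 0.05, adjusted p = 2.2e-14). H2-D1, another heavy chain, differed by 0.89, and Tap2 and Tapbp, of the peptide loading complex, by 0.54 and 0.52. H2 genes resemble each other closely, so reads may be split among them.

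All 13 costimulatory and checkpoint genes were called, 5 higher and 8 lower with iBRD9 + LPS. Cd40, the receptor for CD40 ligand, had 1852, 1879 and 1842 CPM with iBRD9 + LPS and 767, 676 and 668 CPM with Dex + LPS (1.40, SE 0.06, adjusted p = 2.3e-15). Icosl, the ligand of ICOS, had 141, 123 and 130 CPM with iBRD9 + LPS and 319, 326 and 314 CPM with Dex + LPS, and both lay above the LPS mean of 76.6 CPM (-1.28, SE 0.07, adjusted p = 7.5e-13). Cd80, a CD28 ligand, differed by -1.37, the death receptor gene Fas by -1.36 and the adhesion molecule gene Vcam1 by -1.33.

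The widest differences were in genes that were read at high levels with Dex + LPS and almost not at all with iBRD9 + LPS. Jaml (ENSMUSG00000048534, chromosome 9, 45079183 to 45108534), an adhesion molecule of leukocytes, had 0 reads in all 3 iBRD9 + LPS libraries and 30.7, 31.7 and 26.4 CPM (1862 reads) with Dex + LPS. Set against a floor of 3 counts over the group, it was at least 757-fold lower with iBRD9 + LPS, and with LPS alone it had a mean of 0.107 CPM. Ly6c2 (ENSMUSG00000022584, chromosome 15, 75108158 to 75111970), a marker of inflammatory monocytes, also had 0 reads with iBRD9 + LPS, and had 17.6, 13.2 and 13.1 CPM (931 reads) with Dex + LPS, which makes it at least 379-fold lower. Reads of Ly6c2 may be shared with its close paralog Ly6c1.

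Hp (ENSMUSG00000031722, chromosome 8, 109575128 to 109579172), the gene of the haemoglobin-binding protein haptoglobin, had 0.0339, 0.290 and 0.128 CPM with iBRD9 + LPS and 216, 146 and 161 CPM with Dex + LPS. LPS alone, at 3.26 CPM, lay between the groups, which differed by -10.20 (SE 0.26, adjusted p = 2e-19). F13a1 (ENSMUSG00000039109, chromosome 13, 36867178 to 37050244), the A subunit of coagulation factor XIII, had 0.949, 0.746 and 0.855 CPM with iBRD9 + LPS and 290, 349 and 311 CPM with Dex + LPS, against 8.49 CPM with LPS (-8.52, SE 0.16, adjusted p = 2e-21). In both genes iBRD9 went below LPS and Dex above it.

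Gpr141, an orphan receptor (-9.38), Mmp8, a collagenase (-7.35), Susd2 (-7.20) and Cbr2, a carbonyl reductase (-7.05), were also lower than LPS with iBRD9 and higher than LPS with Dex. Tg, the thyroglobulin gene (-7.12), was higher than LPS with Dex and was not called against LPS with iBRD9. Mefv (ENSMUSG00000022534, chromosome 16, 3707218 to 3718097), which encodes pyrin, had 0.678, 0.746 and 0.770 CPM with iBRD9 + LPS and 62.6, 83.0 and 73.9 CPM with Dex + LPS (-6.64, SE 0.15, adjusted p = 4.3e-20). For Mefv the larger step from the LPS mean of 41.1 CPM was that of iBRD9, at -5.81, while Dex stood 0.83 above it. The Src-family kinase gene Fgr (-6.44) and Cd38, an NAD glycohydrolase gene (-6.19), were likewise induced by LPS, lower than LPS with iBRD9 and higher than LPS with Dex.

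Surface receptors for bacterial and chemotactic signals were mostly lower with iBRD9 + LPS. Of 12 chemokine and chemoattractant receptor genes, 9 were lower and 2 higher with iBRD9 + LPS, at a median of -2.11. Fpr2, a formyl peptide receptor, had 4.07, 4.6 and 3.68 CPM with iBRD9 + LPS and 123, 104 and 90.6 CPM with Dex + LPS, against 66.0 CPM with LPS (-4.69, SE 0.13, adjusted p = 7.5e-19). Fpr1 differed by -5.53, Ccr1 by -2.25 and C5ar1, the receptor of complement C5a, by -1.42. Ccr2, the receptor of Ccl2, had 0 reads with iBRD9 + LPS and 18 reads with Dex + LPS, at least 7.32-fold lower, against 235 reads with LPS. Its ligands Ccl2 and Ccl7 were the 2 CC chemokine genes called higher than LPS with iBRD9.

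Of 19 scavenging and efferocytosis receptors, which clear debris and dying cells, 16 were lower and 2 higher with iBRD9 + LPS, at a median of -1.43, and their medians against LPS were -0.99 with iBRD9 and 0.82 with Dex. Mertk, a receptor kinase for phosphatidylserine-bridging ligands, had 11.4, 9.28 and 8.98 CPM with iBRD9 + LPS and 107, 135 and 129 CPM with Dex + LPS, against 12.0 CPM with LPS (-3.64, SE 0.10, adjusted p = 5.9e-19). Siglec1, a sialic acid-binding receptor of macrophages, had 0.915, 1.45 and 1.03 CPM with iBRD9 + LPS and 32.9, 61.5 and 53.6 CPM with Dex + LPS (-5.45, SE 0.25, adjusted p = 1.2e-14). Here it was iBRD9 that moved furthest from the LPS mean of 25.2 CPM, at -4.49. Marco differed by -3.42, Tlr7 by -3.41 and the mannose receptor gene Mrc1 by -1.39.

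Of 14 markers of alternative activation, 9 were lower and 2 higher with iBRD9 + LPS, at a median of -1.30. Chil3, a chitinase-like protein gene, differed by -6.43, Tgfbi by -6.23, Klf4, a transcription factor gene, by -3.97 and the lectin gene Clec10a by -3.12. All 20 macrophage identity genes were called, 15 lower and 5 higher, at a median of -0.63. The 5 higher were Lgals3, Cd68, Ctsd, Cd63 and Maf. Lgals3 averaged 3950 CPM with iBRD9 + LPS and 2150 CPM with Dex + LPS, and Cd68 averaged 1400 CPM with iBRD9 + LPS and 956 CPM with Dex + LPS. Lyz2, the lysozyme gene, had 7547, 7581 and 7611 CPM with iBRD9 + LPS and 15291, 15392 and 15403 CPM with Dex + LPS, against 8467 CPM with LPS (-1.02, SE 0.05, adjusted p = 1.3e-13). Itgam, the integrin CD11b, averaged 260 CPM with iBRD9 + LPS and 977 CPM with Dex + LPS (-1.91, adjusted p = 7.7e-15), and Cebpa, a myeloid transcription factor gene, differed by -1.61.

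**Figure D4:**
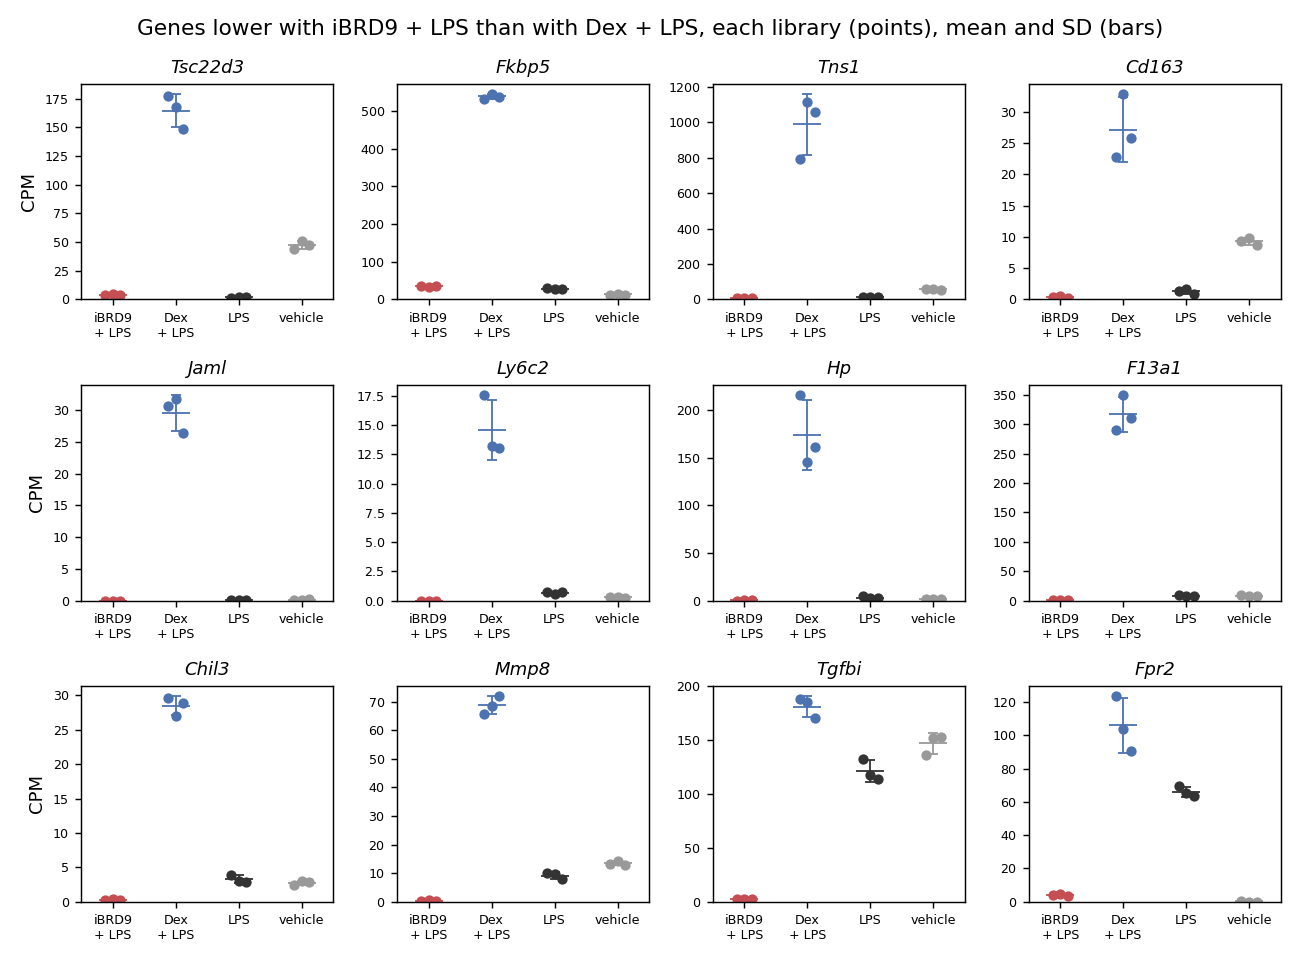
CPM of 12 genes at the Dex end of the comparison in each library of iBRD9 + LPS, Dex + LPS, LPS and vehicle, with the mean and SD (n = 3) as bars; each panel has its own linear axis from 0. Dex + LPS stands highest in every panel, for example at 533 to 546 CPM for Fkbp5 against 34.2 to 36.6 CPM with iBRD9 + LPS, and iBRD9 + LPS lies at or near 0 for Jaml, Ly6c2, Hp and F13a1.

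Several of these genes also mark other cells of the marrow, so marker lists were summed in each library. The summed level of 13 neutrophil markers was 20.8 to 24.6 CPM with iBRD9 + LPS, 116 to 119 CPM with Dex + LPS and 85.8 to 95.3 CPM with LPS, with 5 markers unread with iBRD9 + LPS and 4 with Dex + LPS. All 7 that could be tested were lower with iBRD9 + LPS, most of the sum being Mmp8 and Csf3r. The others tested had fewer reads with iBRD9 + LPS than with Dex + LPS: S100a8 36 against 333, S100a9 54 against 195, Ngp 22 against 185, Camp 4 against 49 and Ltf 7 against 30. Mpo, Cxcr2 and Prtn3 had 0 reads in both groups, and Ly6g had 0 reads with iBRD9 + LPS and 2 reads with Dex + LPS. The 10 stromal markers summed to 0.984 to 2.03 CPM with iBRD9 + LPS, 37.9 to 47.8 CPM with Dex + LPS and 29.9 to 33.4 CPM with LPS, nearly all of it Pdgfrb, with no read of Col1a2, Thy1 or Lum with either compound. The 12 dendritic cell markers summed to 327 to 373 CPM with iBRD9 + LPS and 434 to 455 CPM with Dex + LPS, against 1230 to 1300 CPM with LPS. Of 8 tested, 3 were higher and 4 lower with iBRD9 + LPS. Most of the difference in the sum was Fscn1, at 7.38 CPM with iBRD9 + LPS and 108 CPM with Dex + LPS, while Bst2 had 109 CPM with iBRD9 + LPS and 89 CPM with Dex + LPS. The sums were 122 to 127 CPM with iBRD9 + LPS and 126 to 155 CPM with Dex + LPS for B cell markers, and for T and NK cell markers 2.78 to 4.56 CPM with iBRD9 + LPS and 1.37 to 2.04 CPM with Dex + LPS. In the T and NK list Cd4 averaged 3.14 CPM with iBRD9 + LPS and 0.891 CPM with Dex + LPS, while Lck and Klrb1c were read more with Dex + LPS. Mast cell and basophil markers summed to 2.78 to 4.64 CPM with iBRD9 + LPS and 5.11 to 6.72 CPM with Dex + LPS, and erythroid markers to 38.4 to 40.8 CPM with iBRD9 + LPS and 30.9 to 36.2 CPM with Dex + LPS. The part of other cell types in the myeloid gene differences was not tested.

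Regulators of the LPS signal were divided too. Of 14 genes of NF-κB subunits and inhibitors, 4 were higher and 8 lower with iBRD9 + LPS, at a median of -0.21. Tnip3, an inhibitor that binds A20, had 673, 694 and 680 CPM with iBRD9 + LPS and 293, 281 and 261 CPM with Dex + LPS, against 324 CPM with LPS (1.29, SE 0.05, adjusted p = 3e-16). Rel, the gene of the c-Rel subunit, had 218, 209 and 217 CPM with iBRD9 + LPS and 63.4, 156 and 153 CPM with Dex + LPS, and its difference of 0.79 was 0.47 without Dex + LPS replicate 1. Nfkbid, an atypical IκB gene, differed by -0.94 and Bcl3, another, by -0.67.

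Of 16 MAP kinase phosphatases and mRNA decay factors, 8 were higher and 4 lower with iBRD9 + LPS. Zfp36, which encodes tristetraprolin, a protein that destabilises cytokine mRNAs, had 1409, 1416 and 1425 CPM with iBRD9 + LPS and 672, 614 and 582 CPM with Dex + LPS, on opposite sides of the LPS mean of 836 CPM (1.19, SE 0.07, adjusted p = 4.7e-13). Dusp1, given above among receptor targets, and Dusp2 (-1.15) were lower, so the phosphatase and the decay factor were ordered oppositely. Zfp36l1, a relative of Zfp36, differed by -4.01.

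Of 16 immediate early transcription factor genes, 6 were higher and 7 lower with iBRD9 + LPS. Atf3, a stress-induced repressor, had 676, 645 and 679 CPM with iBRD9 + LPS and 150, 133 and 130 CPM with Dex + LPS (2.28, SE 0.05, adjusted p = 4.3e-20), with LPS at 785 CPM. Ier3 differed by 2.08 and Myc by 1.89, while Fos differed by -2.18 and Ier2 by -1.72.

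Genes that work with Ptgs2 and Nos2 did not all follow them. Ptges, the inducible prostaglandin E synthase downstream of cyclooxygenase, had 31.8, 31.9 and 26.6 CPM with iBRD9 + LPS and 156, 154 and 159 CPM with Dex + LPS, and Dex + LPS lay at the LPS mean of 155 CPM (-2.38, SE 0.07, adjusted p = 9.9e-18). Pla2g4a, which releases arachidonic acid, ran with Ptgs2, at 1.32, and the prostacyclin receptor gene Ptgir against it, at -4.25. Slc7a2, an arginine transporter, had 27.4, 32.0 and 25 CPM with iBRD9 + LPS and 113, 175 and 181 CPM with Dex + LPS (-2.47, SE 0.14, adjusted p = 3.8e-13), and Ass1, which regenerates arginine, differed by -1.05. Odc1, which makes putrescine from ornithine, was higher with iBRD9 + LPS, at 205, 228 and 231 CPM, than with Dex + LPS, at 55.4, 51.0 and 53.6 CPM (2.05, SE 0.06, adjusted p = 1.5e-18). In the 12 genes of prostaglandin and leukotriene synthesis 5 were higher and 6 lower, and in the 9 of nitric oxide, arginine and itaconate metabolism 3 were higher and 5 lower.

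Inflammasome and pyroptosis genes were mostly lower with iBRD9 + LPS, 10 of 13 against 2 higher (1 higher without Dex + LPS replicate 1), at a median of -0.55. Nlrc4, the sensor that works with NAIP proteins, had 4.07, 4.23 and 4.23 CPM with iBRD9 + LPS and 14.9, 17.1 and 18.1 CPM with Dex + LPS (-2.0, SE 0.10, adjusted p = 4.6e-14). Gsdmd, the pore-forming gasdermin, differed by -0.93, Naip5 by -0.80 and the adaptor gene Pycard by -0.72. Il1b, the substrate of the pathway, had the opposite order.

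Cholesterol synthesis genes were nearly all on the side of iBRD9: 21 of 24 were higher with iBRD9 + LPS and 1 lower (20 higher and 0 lower without Dex + LPS replicate 1), at a median of 0.63. Both compounds lay below LPS, with medians of -0.58 with iBRD9 and -1.32 with Dex. Sqle, squalene epoxidase, had 75.2, 78.9 and 78.7 CPM with iBRD9 + LPS and 23.6, 27.4 and 29.8 CPM with Dex + LPS, against 88.9 CPM with LPS (1.53, SE 0.09, adjusted p = 6.3e-13). Hmgcs1, an early enzyme of the pathway, differed by 0.54 and Msmo1 by 1.09.

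Liver X receptor targets, which export cholesterol or make fatty acids, split into 6 higher and 6 lower of 14. The apolipoprotein gene Apoe had 2274, 2199 and 2385 CPM with iBRD9 + LPS and 8077, 7064 and 6663 CPM with Dex + LPS (-1.67, SE 0.07, adjusted p = 3.6e-15), and the cholesterol exporter gene Abca1 had 72, 65.0 and 67.1 CPM with iBRD9 + LPS and 231, 445 and 403 CPM with Dex + LPS (-2.40, SE 0.17, adjusted p = 2.8e-11). Fasn, fatty acid synthase, went the other way, at 1.47. Nr1h3, the gene of the receptor LXRα, differed by -2.99.

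Stress response genes were called in both directions. Of 18 genes of the unfolded protein and integrated stress responses, 10 were lower and 4 higher with iBRD9 + LPS, at a median of -0.74, and of 16 NRF2 targets 10 were lower and 2 higher, at a median of -0.37. Ppp1r15a, the phosphatase subunit GADD34, had 110, 119 and 103 CPM with iBRD9 + LPS and 478, 425 and 395 CPM with Dex + LPS, against 270 CPM with LPS (-1.96, SE 0.07, adjusted p = 3.8e-17). Hmox1, haem oxygenase, had 540, 435 and 510 CPM with iBRD9 + LPS and 2277, 1925 and 1976 CPM with Dex + LPS (-2.06, SE 0.07, adjusted p = 1.1e-16). Slc7a11, the cystine transporter, differed by -2.43, Xbp1 by -1.18 and Herpud1 by -1.61.

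Of 22 glycolysis and HIF1 target genes, 7 were higher with iBRD9 + LPS, a share near the 29.7% of all genes, and 11 were lower, where 29.2% of all genes were. Pfkfb3, which makes the activator of phosphofructokinase, had 26.8, 29.2 and 25.3 CPM with iBRD9 + LPS and 294, 397 and 362 CPM with Dex + LPS, against 72.7 CPM with LPS (-3.70, SE 0.10, adjusted p = 1.5e-18). The pyruvate kinase gene Pkm differed by 0.59. Oxidative phosphorylation genes had few calls, 2 higher and 3 lower of 28, although 11 were called higher without Dex + LPS replicate 1.

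Of 38 cell cycle genes, 23 were lower and 5 higher with iBRD9 + LPS, at a median of -0.43. Their medians against LPS were -1.61 with iBRD9 and -0.80 with Dex. Ccna2, cyclin A2, had 2.27, 2.24 and 1.71 CPM with iBRD9 + LPS and 8.28, 9.51 and 8.50 CPM with Dex + LPS (-2.06, SE 0.14, adjusted p = 2.4e-11). Top2a, topoisomerase IIα, differed by -0.95, and Cdt1, a replication licensing factor gene, by 1.06.

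Clock genes had a median of -1.20 with LPS over vehicle, and 10 of 17 were higher and 3 lower with iBRD9 + LPS, at a median of 0.86, with medians against LPS of 0.56 with iBRD9 and -0.44 with Dex. Nr1d2, a clock repressor, had 31.8, 28.1 and 30.2 CPM with iBRD9 + LPS and 4.6, 6.76 and 6.95 CPM with Dex + LPS, against 13 CPM with LPS and 35.9 CPM with vehicle (2.31, SE 0.12, adjusted p = 1.7e-13). Tef, a PAR bZIP factor gene, differed by 2.64, and Per1 ran against both, as given above.

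Of 28 lysosomal hydrolase and proton pump genes, 16 were higher and 7 lower with iBRD9 + LPS, at a median of 0.21. Lipa, lysosomal acid lipase, averaged 1342 CPM with iBRD9 + LPS and 695 CPM with Dex + LPS (0.95, adjusted p = 1.3e-15), and the cathepsin gene Ctsl averaged 598 CPM with iBRD9 + LPS and 1256 CPM with Dex + LPS (-1.07, adjusted p = 4.1e-15). Of 15 genes of the TGF-β and activin pathway, 8 were higher and 3 lower (5 lower without Dex + LPS replicate 1), and Tgfb1 itself had 772, 758 and 809 CPM with iBRD9 + LPS and 452, 365 and 356 CPM with Dex + LPS (1.00, SE 0.07, adjusted p = 4.4e-11). Of 19 matrix genes, 12 were lower and 5 higher, at a median of -1.61, among them Thbs1, thrombospondin 1, at -4.91 and Mmp19 at -3.08.

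**Figure D5:**
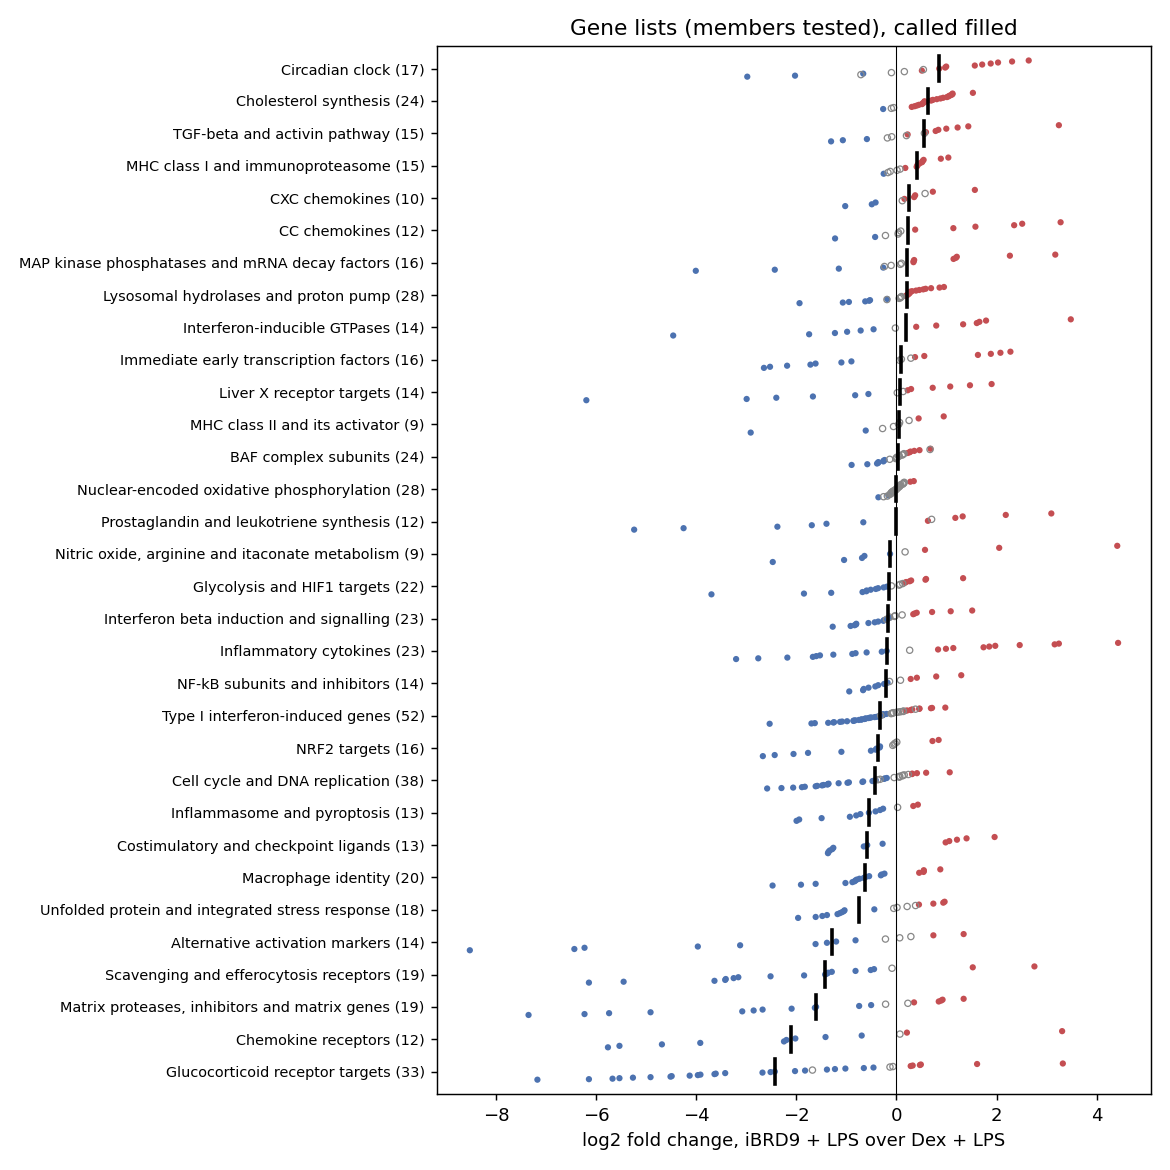
Log2 fold change of iBRD9 + LPS over Dex + LPS (horizontal) for each tested member of the gene lists (vertical), with called members filled, the others open and a bar at the median; Ccr2, with no read with iBRD9 + LPS, stands at its fitted value. Glucocorticoid receptor targets have the lowest median of the pathway lists, at -2.43, while the median is 0.63 for cholesterol synthesis and 0.86 for the circadian clock.

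Beyond these lists, the genes highest with iBRD9 + LPS against Dex + LPS were, after Nos2, Arl4c (4.27), Tent5c (4.03), Fam102a (3.61), Aldoc (3.57), Itgb3 (3.55), Pdgfb (3.47), Cd320 (3.42), Irs2, Ccl22, Prr5l (3.22) and Neurl3 (3.18). All but Ccl22 were higher than LPS with iBRD9, and all were lower than LPS with Dex. Genes picked at either end for a large difference between the compounds tend to lie on opposite sides of LPS. That order is therefore no separate result. Pdgfb, a growth factor chain, had 298, 270 and 313 CPM with iBRD9 + LPS and 24.7, 25.4 and 29.5 CPM with Dex + LPS, against 116 CPM with LPS (SE 0.09, adjusted p = 1.5e-19). Neurl3, a ubiquitin ligase gene, had 238, 218 and 242 CPM with iBRD9 + LPS and 25.1, 24.9 and 26.6 CPM with Dex + LPS (SE 0.07, adjusted p = 9.9e-21). Cish, an inhibitor of cytokine receptors, had 33.8, 41.7 and 35.3 CPM with iBRD9 + LPS and 3.69, 3.24 and 5.21 CPM with Dex + LPS, both below the LPS mean of 98.9 CPM (3.18, SE 0.11, adjusted p = 1.5e-16). Pdpn, podoplanin, had 28.4, 29.9 and 25.6 CPM with iBRD9 + LPS and 3.56, 3.19 and 2.61 CPM with Dex + LPS, with LPS at 25.9 CPM (3.16, SE 0.13, adjusted p = 1.1e-15).

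In the 3 libraries given both compounds and LPS, these genes did not all sit beside the same compound. Fkbp5 averaged 527 CPM there, Tsc22d3 145 CPM, Il1b 1205 CPM, Il12b 37.2 CPM and Osm 2.06 CPM, levels nearer to Dex + LPS than to iBRD9 + LPS. Ptgs2 averaged 152 CPM, below the means of both Dex + LPS (280 CPM) and iBRD9 + LPS (2390 CPM). Nos2 averaged 68.9 CPM and Ccl2 527 CPM, between the levels of each compound alone but nearer to Dex + LPS. Gbp7, at 337 CPM, lay between them too. Hp averaged 35.9 CPM, F13a1 43.9 CPM, Jaml 17.9 CPM and Edn1 88.9 CPM, also between the levels of each compound alone. These are given as values, with no test.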

How the data were processed

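RNA-seq of mouse bone marrow-derived macrophages was deposited by the authors as raw counts per gene, whole numbers with no normalization. Per the submitters' processing notes the build was mm10 and the tools included fastp, STAR and DESeq2. Versions, the counting step, its annotation and its use of strand were not given in the sources used here, so reads of overlapping, antisense and near-identical genes may be mixed. Of 35275 genes, 14981 had no count, and 97.8% of identifiers matched a GENCODE M21 symbol.

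Counts of all 21 libraries of the first experiment, including those with the BRD9 degrader, were fitted together with 1 term per group. The fit used edgeR 4.0.16 in R 4.3.3, with TMM factors and filterByExpr at a minimum count of 10 and total of 15. Genes were called by the quasi-likelihood test at an adjusted p under 0.05 (Benjamini-Hochberg adjustment over 12662 genes). CPM values are counts scaled to TMM-adjusted library totals. Folds are log2, iBRD9 + LPS over Dex + LPS. LPS-raised and LPS-lowered genes were called against vehicle at 2-fold or more. The members and gene lists were chosen with earlier results of these data known.

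Named genes were a set list, the 12 highest and 12 lowest called genes of at least 10 CPM without overlap of libraries, up to 5 called members per list, the 6 highest and 6 lowest LPS-raised genes, and the 4 genes with intervals nearest to 0 (clone names and pseudogenes left out). A few of these genes are not reported here. On simulated data with 12199 genes, the test recovered 71% of 100 genes changed 1.5-fold and 89% of 100 changed 2-fold, with 8 false calls. The simulation gave all genes the same spread, all groups the same means apart from the planted changes, and no library that stood apart. Recovery and false calls in the real libraries may therefore differ. Deviations from the group means correlated at -0.17, -0.11 and 0.01 between libraries of the same replicate number. Between unlike numbers the correlations were -0.15 to 0.17. With 3 libraries per group these values cannot decide whether replicate numbers pair the libraries. Alternatives used DESeq2 1.42.0 and limma 3.58.1. Promoters are RefSeq windows matched by symbol, which covered 75.9% of genes tested, so motif shares were not compared between sets.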

Additional observations from a re-analysis of the deposited data

How the results depend on the processing

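The counts of genes higher and lower with iBRD9 + LPS than with Dex + LPS were 3543 and 3878 with RLE size factors, 4145 and 3341 with library totals alone, 3861 and 3647 with no filter, 3585 and 3452 at 1 CPM, 3515 and 3869 with DESeq2, 3811 and 3644 with limma voom, 4112 and 4032 with quality weights, and 2902 and 2912 with only the 6 libraries fitted. With the replicate number as a block, they were 3800 and 3706. No gene called both in the main fit and under one of these settings changed direction between them. Leaving out 1 library at a time gave 6883 to 7856 called genes, 3415 to 3941 higher and 3449 to 3915 lower, 2165 to 2245 of at least 2-fold, 421 to 456 higher and 884 to 974 lower among LPS-raised genes, and 704 to 744 higher and 452 to 492 lower among LPS-lowered genes. Without the 3 libraries that stood apart, an alternative chosen after seeing the data, the counts were 4047 and 3977. With library totals alone the LPS classes are themselves redrawn, and 609 LPS-raised genes were lower, 1531 LPS-lowered genes higher and 777 LPS-lowered genes lower. The TMM factors were 1.275 to 1.286 for vehicle and 0.892 to 0.905 for LPS. Leaving them out lowers LPS against vehicle for every gene, so the LPS classes depend on the scaling. Which scaling is nearer to the RNA content of the cells was not tested. Of 212 named genes, the calls of Ciita, Acod1, Cycs, Atp5a1, Cxcl1, Arid2, Ndufa1, Bst2, Tfrc and Il10 were lost in at least 1 setting, and H2-Aa gained one without iBRD9 + LPS replicate 3 (0.39, adjusted p = 0.0463 by edgeR). Depth limits genes of few reads such as Ifnb1, whose interval spans more than 2-fold.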
